A study of Mus musculus with 59 samples.

Results

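Untreated cells of a DGCR8 flox line and of a Drosha flox line were compared, both mouse embryonic stem (ES) cells. The 12 untreated RNA libraries of the 59 samples of the study were chosen by their titles, 6 of each line: 2 replicates at each of 24, 48 and 96 h. Both lines are labelled as hybrids of the strains 129 and C57Bl6. The DGCR8 line is labelled as Rosa26:CRE, DGCR8 Flox/Flox, and the Drosha line as Drosha Flox/Flox with no recombinase named in the genotype. In the study both serve as lines from which a floxed gene is removed by 4-hydroxytamoxifen (4OHT) at 0.5 µM, and the libraries used here are the controls without it. Each line is 1 line, so that the floxed gene, the recombinase and the history of the line cannot be told apart, and each p-value is set against library spread alone. Whether the replicates came from separate cultures is not given in the sources used here. For every untreated replicate 2 (6 of the 12 libraries) another label names 4OHT. Titles were followed, and under them the untreated libraries of the Drosha line held 82.4 to 126 CPM of Drosha RNA and the 4OHT libraries 23.4 to 29.1 (CPM, reads of a gene scaled to a common library size, here with TMM over all 23 libraries of both lines). On the same scale Dgcr8 RNA in the DGCR8 line was not lower with 4OHT: it ran from 105 to 145 CPM untreated and from 223 to 289.5 CPM with 4OHT, without overlap. Counts are per whole gene, so reads of the floxed part alone were not seen.

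ES cells divide without limit in culture and keep the ability to form all tissues of the embryo. A network of transcription factors holds them in the naive state that resembles the early epiblast, while FGF and Nodal signals move them towards later fates. DGCR8 binds the hairpins of primary microRNA transcripts and Drosha cuts them, and together they form the Microprocessor. Imprinted genes are read from 1 parental copy only, and their methylation marks are known to be lost or gained in ES cell culture, so that lines can differ in them.

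The lines differed over most of the expressed transcriptome. Of 14385 genes tested with edgeR's quasi-likelihood test, with time as a covariate, 7932 (55.1%) passed an adjusted p of 0.05: 4046 (28.1%) were higher and 3886 (27%) lower in the DGCR8 line. The differences were mostly small, with a median absolute log2 fold change of 0.30 and a median of 0.01. More than 2-fold apart were 1404 genes (9.76%), 475 higher (3.3%) and 929 lower (6.46%), and for 3877 genes (27%) the 6 libraries of one line did not overlap the 6 of the other. With library totals in place of TMM scaling the median of all genes moved by -0.11, and the calls were 2830 higher and 5150 lower (35.5% higher against 51.0% of the calls with TMM). Fold changes below are log2, DGCR8 line minus Drosha line, ± standard error, from TMM-scaled counts, and CPM values, where no other scale is named, are TMM-scaled over these 12 libraries and given as lowest, median and highest of the 6 libraries of a line. Library totals ran from 9689886 to 12210399 counts, the mitochondrial rRNA mt-Rnr2 took 10.4% to 15.4% of them, and the first principal component, with 63.2% of the variance, separated the lines.

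Both targeted genes differed in the untreated cells. Drosha RNA ran from 113 (median 144) to 172 CPM in the DGCR8 line and from 84.5 (median 111) to 129 CPM in the Drosha line (0.42 ± 0.06, adjusted p = 3.98e-05). Dgcr8 RNA ran from 108 (median 129.6) to 148 CPM and from 80.0 (median 104) to 119 CPM (0.35 ± 0.06, adjusted p = 1.06e-04). For both genes the ranges of the lines overlapped. Of 17 tested genes of the microRNA pathway, 4 were higher (23.5%, against 28.1% of all genes) and 7 lower (41.2%, against 27%), with a median of 0.00. Exportin 5 (Xpo5), which carries hairpins out of the nucleus, was lower (-0.40 ± 0.05, adjusted p = 6.27e-06), and the helicase gene Ddx17, whose protein joins the Microprocessor, was higher (0.34 ± 0.05, adjusted p = 1.03e-05), both without overlap. The count of lower members depended on the fit: it was 4 without DGCR8 96 h replicate 2 and 3 without the time term.

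The markers of ES cells were present in every library of both lines. The summed level of 5 ES cell markers, as CPM of library totals, ran from 2459.8 to 2887 CPM in the DGCR8 line and from 1725 to 1894 CPM in the Drosha line. With TMM scaling all 5 were called higher in the former, but with library totals Sox2 and Nanog did not pass. Y-linked genes were at or near 0 in both lines: Ddx3y held 1 to 4 reads per library in the DGCR8 line and 0 to 1 in the Drosha line, and Eif2s3y 2 to 6 and 0. In the 2 parental libraries of the same study, counted in a separate table, these genes held 380 and 638, and 394 and 566 reads. Genes of the 2-cell-like state did not pass the filter on low counts in either line, with summed levels of 6 markers, on the same scale, of 0.103 to 0.754 CPM in the DGCR8 line and 0.171 to 1.01 CPM in the Drosha line.

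Among the largest differences were genes near off in one line and well expressed in the other, and genes on in both lines, such as Zfp42. The rule took the 15 called genes with the largest fold change in each direction, among those with an average of at least 2 log2 CPM and no overlap between the lines. Rprl3, an RNase P RNA-like gene on chromosome 8, held 70199 reads in the DGCR8 line and 28 in the Drosha line, a 2660-fold difference in CPM (95% counting interval 1841 to 4004). It ran from 565 (median 1225) to 1555 CPM against 0.178 (median 0.436) to 0.612 CPM. The near-identical Rprl1 and Rprl2, looked at after these values were seen, held 237 and 321 reads against 14 and 30, whereas Rpph1, the RNase P RNA gene itself, did not pass the test (-0.11, adjusted p = 0.563; median 2661 and 2748 CPM). How the counting split reads among these copies is not known, so the level of each is uncertain.

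**Figure D1:**
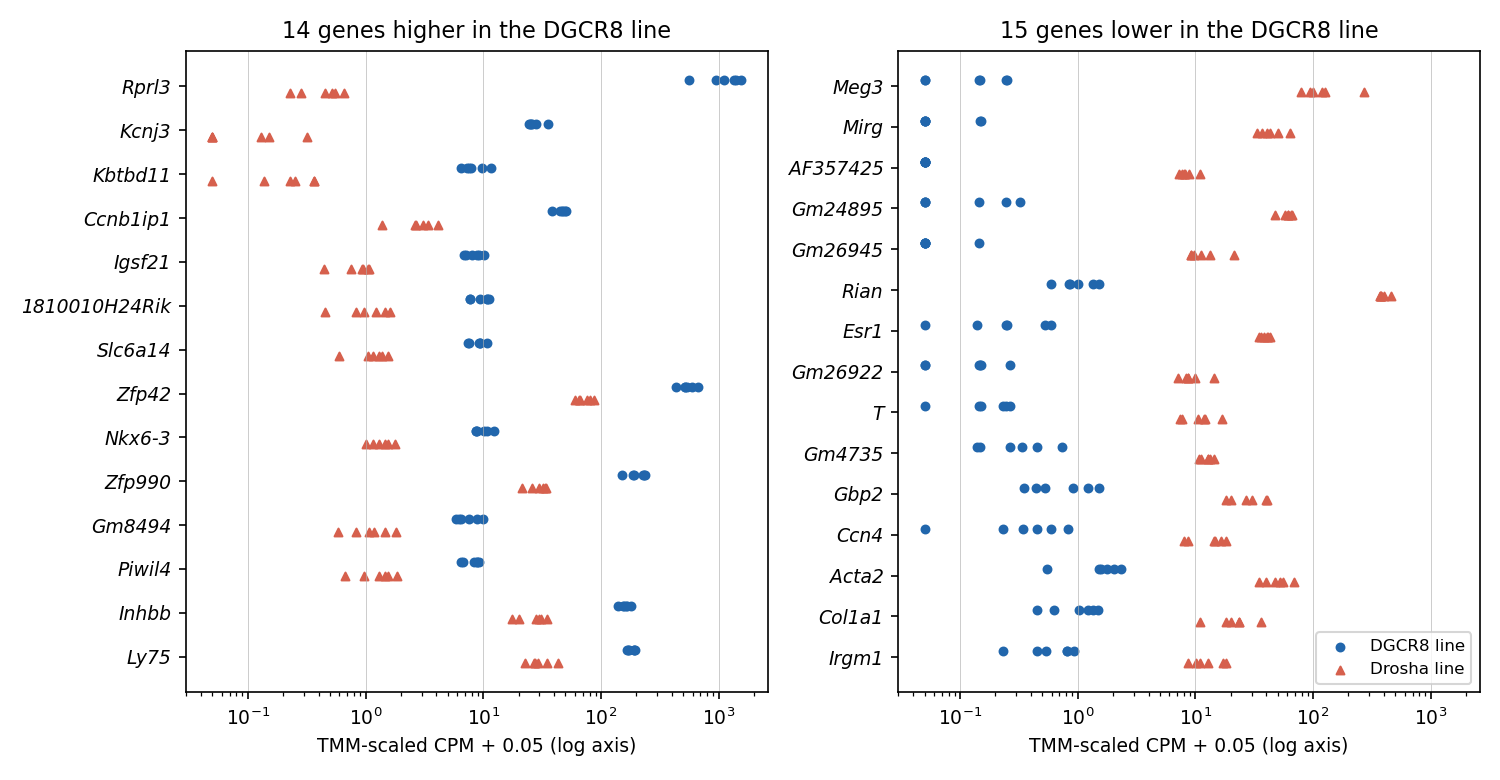
Level of 14 of the 15 genes most higher (left) and the 15 most lower (right) in the DGCR8 line, as TMM-scaled CPM + 0.05 on a log axis, 1 point per untreated library (6 per line). Rprl3 sits between 565 and 1555 CPM in the DGCR8 line and at most at 0.612 CPM in the Drosha line. Only genes without overlap between the lines were eligible.

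Other genes on in the DGCR8 line code for proteins. Kcnj3, a G-protein-gated potassium channel subunit, held 1675 reads against 5, with 24.7 (median 25.8) to 35.7 CPM and 0 (median 0.0392) to 0.267 CPM, a 355-fold difference (95% counting interval 152 to 1096). Kbtbd11 held 514 reads against 13 (42.0-fold, interval 24.3 to 79.3). The cell cycle and meiosis gene Ccnb1ip1 stood at 38.4 (median 47.0) to 50.1 CPM against 1.32 (median 2.83) to 4.08 CPM (4.04 ± 0.14, adjusted p = 1.35e-12). As the rule required, every library of the DGCR8 line was above every library of the Drosha line in these genes. Zfp42, better known as the ES cell marker Rex1, ran from 434 (median 530.4) to 674 CPM against 59.7 (median 71.5) to 86.8 CPM (2.91 ± 0.07, adjusted p = 6.26e-14). Also among the 15 were Igsf21, 1810010H24Rik, the amino acid transporter gene Slc6a14, the homeobox gene Nkx6-3, Zfp990, Gm8494, Piwil4 (a piRNA-binding Argonaute of male germ cells), Inhbb (the activin beta-B subunit) and the endocytic receptor gene Ly75, with log2 fold changes of 2.59 to 3.34. Zfp990 belongs to a family of similar zinc finger genes, and its reads may be shared with copies.

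Among the genes on in the Drosha line was Esr1, which encodes oestrogen receptor alpha, the receptor that 4OHT binds and whose hormone-binding domain is used in recombinases switched by 4OHT. Esr1 on chromosome 10 held 2738 reads in the Drosha line and 15 in the DGCR8 line, 34.6 (median 39.3) to 43.3 CPM against 0 (median 0.198) to 0.541 CPM, a 172-fold difference (95% counting interval 104 to 308). Every Drosha library was high and every DGCR8 library near 0, and the 2 parental libraries stood at 0.0754 and 0 CPM of library totals. Counts are per whole gene, and whether these reads span the whole gene was not tested. The RNA of the Rosa26 locus, Gt(ROSA)26Sor, where the labels place the recombinase of the DGCR8 line, was higher in that line (0.54 ± 0.13, adjusted p = 0.00239). The lines overlapped, and this gene was not called higher in the 4OHT libraries. The neighbours of the locus, Setd5 and Thumpd3, did not pass (-0.15 and -0.05).

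Also near off in the DGCR8 line were interferon-inducible GTPase genes and genes of the extracellular matrix. Gbp2 held 48 reads against 2068 (40.6-fold, 95% counting interval 30.5 to 55.2) and Irgm1 35 against 901 (24.3-fold, interval 17.3 to 35.1). Ccn4, a secreted protein gene induced by Wnt, held 22 reads against 942 (40.4-fold, interval 26.5 to 64.7), and Gm4735 18 against 876. Gm24895, Gm26945 and Gm26922 held 6, 1 and 5 reads against 4215, 850 and 662, and the coordinate table used here places none of them.

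The imprinted Dlk1-Dio3 cluster on chromosome 12 was near silent in the DGCR8 line. In this cluster the maternal copy is read into long noncoding RNAs, which carry snoRNAs and many microRNA hairpins, and the paternal copy into protein-coding genes. Meg3, the first of the noncoding RNAs (start at 109540996), held 0 to 2 reads in each DGCR8 library and 905 to 3034 in each Drosha library, in all 6 against 9101 (1429-fold in CPM, 95% counting interval 657 to 3896). Rian (start at 109603945) held 60 reads against 27473 (432-fold, interval 335 to 566) and Mirg (start at 109734981) 2 against 3099 (1460-fold, interval 404 to 12063). Rian stood in the Drosha line at 367 (median 377) to 458 CPM, and no DGCR8 library exceeded 1.47 CPM. AF357425, a small RNA gene within Rian, held 0 reads against 593, at least 186-fold lower (against a floor of 3 reads over the DGCR8 libraries). The 2 parental libraries held 685 and 153 reads of Meg3, 1970 and 1127 of Rian, and 234 and 94 of Mirg, so all 3 genes were on in parental cells, at different levels.

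Of 54 hairpin genes annotated in the cluster, 43 had a read in the Drosha line, 570 reads in all, and 1 had a read in the DGCR8 line, with 2 reads in all. These reads come from RNA libraries and count longer precursors or host transcripts over the hairpin, not mature microRNA. Mir433 had the most, 17 to 43 reads in each Drosha library (145 in all) and 0, 0, 0, 0, 0 and 2 in the DGCR8 libraries, so the lines did not overlap. Next were Mir3070a with 53 reads, Mir3071 and Mir1906-1 with 46 each, Mir1188 with 36, Mir410 with 23 and Mir668 with 19, all at 0 in the DGCR8 line. Mir410 and Mir668 also held 0 reads in 1 Drosha library each, so for these the lines overlapped. Mature sequences were in the RefSeq table for 51 of the hairpin genes (GRCm38.p6), 94 microRNAs with 87 different seeds, the bases that pair with targets. The 3p arms of Mir433, Mir3070a, Mir3071 and Mir1188 are shown, with the seed (bases 2 to 8) in capitals. These hairpins held the most reads of those with mature sequences, and the lines did not overlap in them, nor in some hairpins with fewer reads. Mir3071 lies on the minus strand and the others shown on the plus strand. The counting strand is not given in the sources used here, so reads over Mir3071 may come from a transcript of the other strand. The letters show that none of the 4 seeds is shared between them.
mmu-miR-433-3p: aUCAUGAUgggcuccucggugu
mmu-miR-3070-3p: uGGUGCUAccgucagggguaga
mmu-miR-3071-3p: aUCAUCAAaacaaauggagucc
mmu-miR-1188-3p: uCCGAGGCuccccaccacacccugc

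Of the paternally expressed genes of the cluster, Dlk1 was tested and was lower in the DGCR8 line. Dlk1, a Notch-like ligand that holds back differentiation, ran from 0.197 (median 0.559) to 1.10 CPM against 1.25 (median 1.94) to 2.36 CPM (-1.63 ± 0.31, adjusted p = 2.86e-04). Rtl1, a retrotransposon-derived gene, held 9 reads against 148, and Dio3, an enzyme that inactivates thyroid hormone, 14 against 35, and both were below the filter on low counts and not tested, with overlap for Dio3. Rtl1 overlaps antisense hairpin genes, and the counting strand is not given in the sources used here, so its reads cannot be told apart from theirs.

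Paternally expressed imprinted genes elsewhere in the genome were lower as well. Of 22 tested paternally expressed genes (Dlk1 among them), 19 were lower (86.4%, against 27% of all genes) and 0 higher in the DGCR8 line. Of the 19, 15 did not overlap (13.3% of all genes were lower without overlap). The median was -1.004 against 0.01 for all genes. Their summed level ran from 1569.7 to 1762 CPM in the DGCR8 line and from 2979.9 to 3359 CPM in the Drosha line. Peg10, a retrotransposon-derived placental gene, stood at 394 (median 426) to 469 CPM against 1033 (median 1224) to 1443 CPM (-1.53 ± 0.06, adjusted p = 5.44e-12). Igf2, the fetal growth factor, ran from 5.84 (median 6.26) to 10.5 CPM against 48.7 (median 67.6) to 86.0 CPM (-3.27 ± 0.14, adjusted p = 2.60e-11). Peg3, a zinc finger gene, ran from 85.8 (median 104) to 157 CPM against 296 (median 345) to 391 CPM (-1.62 ± 0.09, adjusted p = 2.61e-10). In each of these the highest DGCR8 library was below the lowest Drosha library. Airn, the noncoding RNA that silences the paternal copy of Igf2r, held 8 reads against 118 (13.9-fold, 95% counting interval 6.83 to 32.9), and Nnat, neuronatin, was lower by log2 fold change too (-1.72 ± 0.11, adjusted p = 2.16e-09). Mkrn3, Usp29 and Nespas did not pass (0.23, -0.36 and -0.18, adjusted p = 0.251, 0.125 and 0.341).

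Maternally expressed genes went both ways. Of 19 tested, 6 were higher (31.6%, against 28.1% of all genes) and 8 lower (42.1%, against 27%), with a median of 0.06, and Meg3, Rian and Mirg were among the 8. The cell cycle inhibitor gene Cdkn1c ran from 51.8 (median 65.1) to 83.8 CPM against 34.3 (median 40.4) to 43.6 CPM (0.73 ± 0.09, adjusted p = 2.68e-06). Grb10, an adaptor that limits growth, was higher (0.30 ± 0.06, adjusted p = 6.53e-04) with overlap. H19, the noncoding RNA paired with Igf2 in 1 imprinted domain, was slightly higher (0.41 ± 0.13, adjusted p = 0.0136) with overlap, and did not pass with library totals (adjusted p = 0.0689), in replicate 1 alone (0.141) or without either Drosha 24 h library (0.0676 without replicate 1 and 0.0646 without replicate 2). Zim1 was lower (-1.75 ± 0.28, adjusted p = 5.69e-05). Zfp57, whose protein protects imprinting marks on DNA, was higher in the DGCR8 line (0.74 ± 0.07, adjusted p = 4.13e-07), with 431 (median 466) to 500.4 CPM against 241 (median 269) to 356 CPM. DNA methylation was not measured in these libraries.

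**Figure D2:**
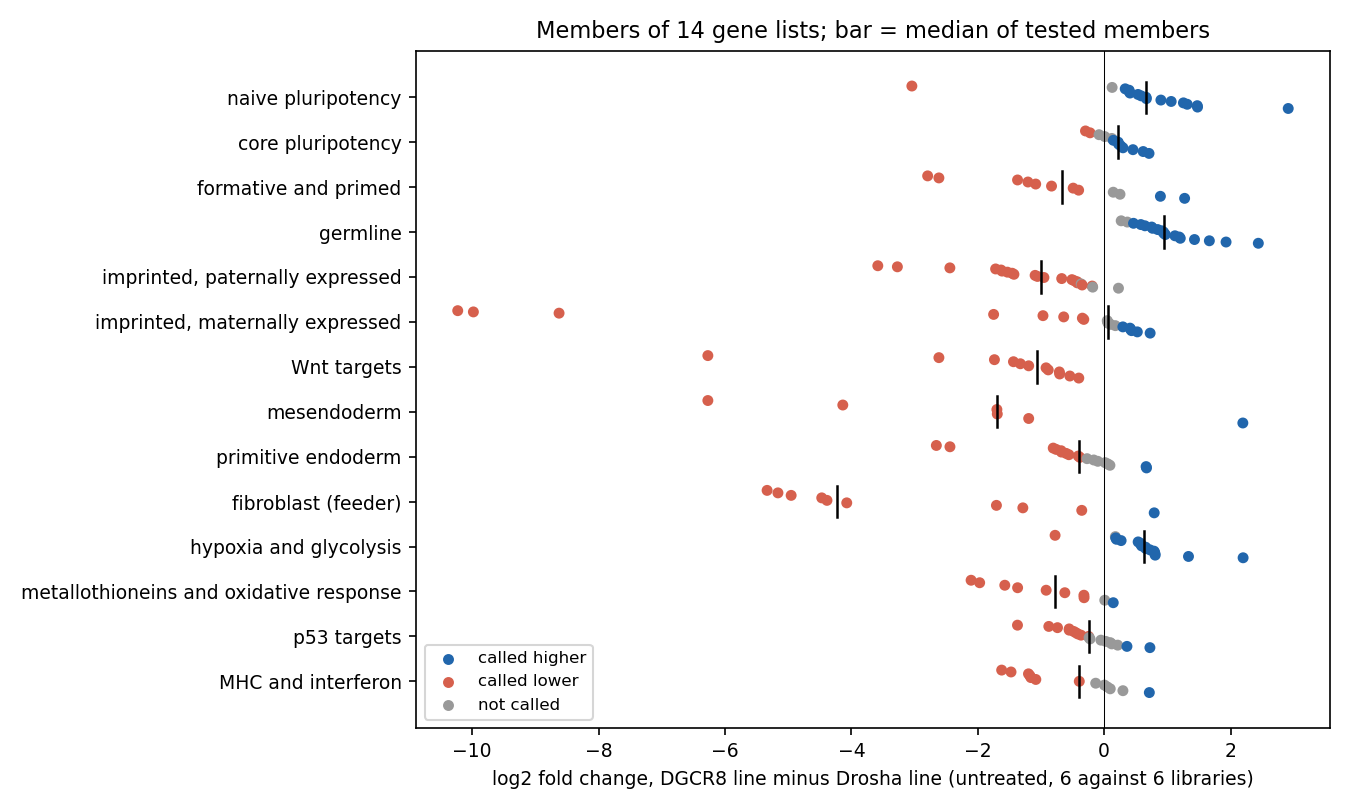
Log2 fold change of every tested member of 14 gene lists (DGCR8 line minus Drosha line, 6 against 6 untreated libraries), with the median as a bar and the call by colour. Germline genes lie above 0 (median 0.94), Wnt targets below (median -1.06), and the tested fibroblast genes below with the exception of Thy1 (median -4.23).

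The naive pluripotency genes were higher in the DGCR8 line. Of 17 tested, 15 were higher (88.2%, against 28.1% of all genes) and 1 lower, with a median of 0.66. Of the 15, 14 did not overlap (13.7% of all genes were higher without overlap). Next to Zfp42, Tfcp2l1, a factor that sustains self-renewal, ran from 841 (median 909.6) to 1045 CPM against 343 (median 368) to 388 CPM (1.31 ± 0.06, adjusted p = 3.03e-11). Klf4 ran from 71.4 (median 92.8) to 108 CPM against 34.5 (median 36.4) to 44.3 CPM (1.25 ± 0.07, adjusted p = 1.05e-09). Tbx3 and Prdm14, which also sustain the naive state, had log2 fold changes of 1.47 ± 0.09 and 1.48 ± 0.12 (adjusted p = 1.21e-09 and 4.52e-08), and Esrrb 0.67 ± 0.07 (adjusted p = 3.58e-07). None of these genes overlapped between the lines. The exception was Dppa3 (Stella), which guards methylation in the egg and early embryo, at 2.06 (median 2.58) to 5.09 CPM against 20.1 (median 22.6) to 30.0 CPM (-3.04 ± 0.18, adjusted p = 1.20e-09). Tcl1 did not pass (0.13 ± 0.09, adjusted p = 0.255).

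Core pluripotency factors differed less. Of 13 tested, 8 were higher (61.5%, against 28.1% of all genes) and 2 lower, with a median of 0.22, and with library totals 4 were higher and 3 lower. Pou5f1 (Oct4) ran from 876 (median 941) to 996 CPM against 594 (median 687) to 767 CPM (0.46 ± 0.07, adjusted p = 2.00e-05), without overlap. Sox2 and Nanog were higher by 0.23 ± 0.05 and 0.26 ± 0.08 (adjusted p = 0.00166 and 0.0119) with overlap, and with library totals neither passed (adjusted p = 0.101 and 0.106). Dppa5a was lower (-0.29 ± 0.09, adjusted p = 0.00975), also with overlap.

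Genes of the formative and primed states, through which cells leave the naive state, were mostly lower. Of 12 tested, 8 were lower (27% of all genes were) and 2 higher, with a median of -0.66. Fgf5, the marker of the primed epiblast, held 19 reads in the DGCR8 line and 156 in the Drosha line (7.74-fold, 95% counting interval 4.79 to 13.2). Dnmt3b, which methylates DNA anew, ran from 128 (median 137) to 154 CPM against 209 (median 253) to 288 CPM (-0.83 ± 0.07, adjusted p = 3.88e-08), and its cofactor gene Dnmt3l from 77.0 (median 93.2) to 124 CPM against 184 (median 225) to 248 CPM (-1.21 ± 0.11, adjusted p = 9.72e-08). The transcription factor genes Otx2 and Tcf15 went the other way, at 1.27 ± 0.11 and 0.89 ± 0.09 (adjusted p = 1.26e-07 and 6.54e-07). The members of the list thus did not move as 1 group. Of 12 tested genes of DNA methylation 4 were higher (33.3%) and 6 lower (50%, against 28.1% and 27% of all genes), and among enzymes that remove it Tet2 was higher (0.97 ± 0.07, adjusted p = 2.16e-08) and Tdg lower, at 0.983 (median 1.27) to 1.73 CPM against 9.50 (median 10.7) to 12.6 CPM (-3.07 ± 0.14, adjusted p = 6.12e-11).

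All 12 tested Wnt targets were lower in the DGCR8 line (27% of all genes were), with a median of -1.06. Of the 12, 6 did not overlap (13.3% of all genes were lower without overlap). In the 4OHT libraries, described below, 8 of the 12 were called lower (22.5% of all genes were). Brachyury (T), a mesoderm factor and Wnt target, was near off there: 8 reads against 771, with 0 (median 0.141) to 0.216 CPM and 7.39 (median 11.1) to 16.9 CPM (90.8-fold, 95% counting interval 45.9 to 211). Axin2, which feeds back on Wnt signalling and is often used to read it out, ran from 5.30 (median 7.45) to 7.86 CPM against 13.9 (median 20.4) to 23.2 CPM (-1.43 ± 0.13, adjusted p = 1.29e-07). Lef1 and Tcf7, which bind DNA for the pathway, differed by -2.61 ± 0.23 and -0.54 ± 0.09 (adjusted p = 1.07e-07 and 6.59e-05), and Ccnd1 (cyclin D1) by -0.70 ± 0.05 (adjusted p = 1.10e-08). Sp5 was lower (-1.33 ± 0.37, adjusted p = 0.00573), and did not pass in replicate 1 alone (adjusted p = 0.0775). The ligand gene Wnt3 held 19 reads against 397 (19.7-fold, interval 12.4 to 33.1). Of the mesendoderm list, which shares members with the Wnt list, 5 of 6 tested genes were lower (83.3%, against 27% of all genes). Among them were Eomes (-1.70 ± 0.14, adjusted p = 5.12e-08) and Mixl1 (-1.69 ± 0.30, adjusted p = 1.63e-04), while Fgf17 was higher (2.20 ± 0.09, adjusted p = 1.60e-11). Without the filter on low counts 8 mesendoderm genes were lower.

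The promoters of the Wnt targets that moved together were searched for the DNA words CTTTGAA and CTTTGAT, on both strands, which TCF and LEF proteins are known to bind, in the 250 bases before each RefSeq start (GRCm38.p6). Of the 8 tested Wnt targets with an entry in the table, 3 held a word (T, Sp5 and Dkk1), against 6.18% of the 9935 tested genes with an entry and 8.63% of all 27025. The promoters of T and Sp5 are shown, with the word in capitals. A match is a string of letters and not a measured site.
T promoter, chr17:8434173-8434422, plus strand: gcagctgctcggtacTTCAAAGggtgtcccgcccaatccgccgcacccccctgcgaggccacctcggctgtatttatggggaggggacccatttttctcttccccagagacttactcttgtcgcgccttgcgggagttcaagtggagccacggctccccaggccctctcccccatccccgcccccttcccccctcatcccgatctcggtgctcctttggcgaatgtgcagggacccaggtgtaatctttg
Sp5 promoter, chr2:70474673-70474922, plus strand: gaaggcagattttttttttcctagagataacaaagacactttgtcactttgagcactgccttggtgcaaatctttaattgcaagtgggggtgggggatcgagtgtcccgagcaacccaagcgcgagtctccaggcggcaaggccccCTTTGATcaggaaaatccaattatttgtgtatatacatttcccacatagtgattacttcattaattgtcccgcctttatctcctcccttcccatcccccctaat

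Germline genes were higher in the DGCR8 line. Of 19 tested, 17 were higher (89.5%, against 28.1% of all genes) and 0 lower, 11 without overlap (13.7% of all genes were higher without overlap), with a median of 0.94, and their summed level ran from 267 to 332 CPM against 111 to 149 CPM. Stra8, which starts meiosis, ran from 6.58 (median 9.60) to 12.8 CPM against 0.891 (median 1.86) to 2.45 CPM (2.44 ± 0.15, adjusted p = 1.97e-09). Mov10l1, a helicase of the piRNA pathway, ran from 22.5 (median 28.0) to 32.5 CPM against 5.97 (median 7.35) to 7.79 CPM (1.93 ± 0.09, adjusted p = 9.63e-11). The piRNA-binding Piwil2 and the meiotic recombination gene Tex11 differed by 1.19 ± 0.07 and 1.43 ± 0.10 (adjusted p = 3.62e-10 and 1.04e-08), all without overlap. The helicase gene Ddx4 (Vasa) and the piRNA gene Mael differed by 0.75 ± 0.08 and 1.12 ± 0.13 (adjusted p = 1.47e-06 and 2.07e-06). Dazl, an RNA-binding protein gene of germ cells, was higher with overlap (0.65 ± 0.19, adjusted p = 0.00952), and Sycp1 and Brdt did not pass (0.27 and 0.37, adjusted p = 0.125 and 0.260). The germline list contains genes that act in meiosis and genes that silence transposons, and both kinds were among the 17.

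The germline promoters were searched for the E-box CACGTG, a palindrome that is known to be bound by repressors of germline genes in ES cells, in the same windows. It was present in 11 of 17 tested germline genes with an entry searched (64.7%), against 10.2% of the 9935 tested genes and 6.86% of all genes searched. The E2F words GGCGGGAA and GCGCGAAA, on both strands, were present in 3 of 17 (17.6%) against 4.87% of tested genes. The windows of Mov10l1, Mael and Ddx4 are shown because these genes differed without overlap and hold the E-box, here in capitals. Which factor, if any, was bound there was not measured.
Mov10l1 promoter, chr15:88982744-88982993, plus strand: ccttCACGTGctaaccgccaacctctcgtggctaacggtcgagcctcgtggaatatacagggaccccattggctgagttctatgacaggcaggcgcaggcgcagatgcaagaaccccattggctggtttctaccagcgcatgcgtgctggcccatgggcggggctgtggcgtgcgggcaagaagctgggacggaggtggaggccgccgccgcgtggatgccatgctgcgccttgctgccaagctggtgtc
Mael promoter, chr1:166238745-166238994, minus strand: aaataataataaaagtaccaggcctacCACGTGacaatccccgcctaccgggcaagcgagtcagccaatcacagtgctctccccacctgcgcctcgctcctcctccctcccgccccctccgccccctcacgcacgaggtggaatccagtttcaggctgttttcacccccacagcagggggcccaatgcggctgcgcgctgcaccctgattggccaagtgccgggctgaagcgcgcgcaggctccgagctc
Ddx4 promoter, chr13:112652311-112652560, minus strand: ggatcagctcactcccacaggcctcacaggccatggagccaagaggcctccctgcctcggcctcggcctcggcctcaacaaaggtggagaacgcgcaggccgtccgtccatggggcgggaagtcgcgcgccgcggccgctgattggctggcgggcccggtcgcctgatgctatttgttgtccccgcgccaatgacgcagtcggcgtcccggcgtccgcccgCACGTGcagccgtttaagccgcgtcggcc

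Genes of contractile and matrix-producing cells were much lower in the DGCR8 line. Of 10 tested fibroblast genes, listed as markers of feeder cells, 9 were lower (27% of all genes were) and 1 higher, with a median of -4.23. Col3a1, Postn (2 reads against 110) and Lox (5 against 135) passed the filter on low counts only through the Drosha line. The count and the median thus lean towards genes that are high there. Listed genes below the filter were not tested, such as Col1a2 (11 reads against 70) and Col5a2 (29 against 38). The summed level of the 16 listed genes ran from 89.2 to 104 CPM in the DGCR8 line and from 447 to 603 CPM in the Drosha line. Tagln, a smooth muscle actin-binding protein gene, ran from 9.53 (median 11.7) to 12.8 CPM against 165 (median 186) to 241 CPM (-4.07 ± 0.09, adjusted p = 1.58e-14), and Acta2, smooth muscle actin, from 0.499 (median 1.64) to 2.31 CPM against 34.9 (median 49.6) to 68.9 CPM (-4.95 ± 0.19, adjusted p = 5.59e-12). The collagen genes Col1a1 and Col3a1 held 60 and 5 reads against 1544 and 265 (24.3-fold and 49.9-fold, 95% counting intervals 18.7 to 31.9 and 21.1 to 155). Vimentin (Vim) differed by -1.70 ± 0.06 (adjusted p = 2.14e-12), while Thy1, a surface protein of fibroblasts that lymphocytes also carry, was higher (0.79 ± 0.19, adjusted p = 0.00199). Decorin (Dcn), a defining fibroblast gene, held 1 read in the DGCR8 line and 10 in the Drosha line, and lumican (Lum) 1 and 0. The part of other cells in these levels was not tested, and in bulk RNA more cells of a type and more RNA per cell cannot be told apart.

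The epithelial keratin genes Krt8 and Krt18 and the intermediate filament gene Nes were lower too. Krt18 ran from 26.8 (median 31.7) to 55.6 CPM against 168 (median 239.9) to 245 CPM (-2.65 ± 0.10, adjusted p = 7.07e-12), and Krt8 differed by -2.44 ± 0.08 (adjusted p = 2.14e-12). Nes ran from 21.0 (median 32.9) to 47.3 CPM against 107 (median 124) to 134 CPM (-1.90 ± 0.11, adjusted p = 4.90e-10). Of 18 tested primitive endoderm genes, among which the keratins were listed, 10 were lower (55.6%, against 27% of all genes) and 2 higher with a median of -0.40, and the summed level of the 9 endoderm markers listed for the check of cell types was 79.4 to 111 CPM of library totals against 128 to 169 CPM. Of 8 tested neuroectoderm genes 5 were lower and 1 higher, and of 6 trophoblast genes 4 were lower and 1 higher (27% of all genes were lower and 28.1% higher).

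Of 13 tested MHC and interferon genes, 7 were lower (53.8%, against 27% of all genes) and 1 higher (28.1% of all genes were), with a median of -0.39. Irf1, an interferon-response factor, ran from 12.6 (median 14.7) to 16.3 CPM against 28.9 (median 30.8) to 33.2 CPM (-1.08 ± 0.07, adjusted p = 6.22e-09). Ifitm1 and Bst2, antiviral membrane proteins, differed by -1.62 ± 0.11 and -1.20 ± 0.09 (adjusted p = 2.98e-09 and 2.94e-08), and Gbp2 and Irgm1 above are of the same response.

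Genes of metabolism separated the lines in both directions. Of 18 tested hypoxia and glycolysis genes, 16 were higher (88.9%, against 28.1% of all genes) and 1 lower, with a median of 0.63. Ldha, lactate dehydrogenase, ran from 390.2 (median 464) to 599.6 CPM against 243 (median 288) to 320.3 CPM (0.72 ± 0.08, adjusted p = 1.76e-06), and Aldoa, aldolase, from 526 (median 587) to 775 CPM against 347 (median 386) to 449 CPM (0.66 ± 0.06, adjusted p = 2.02e-07). The glucose transporter gene Slc2a1 and the hypoxia-induced Ankrd37 differed by 0.58 ± 0.08 and 2.20 ± 0.23 (adjusted p = 7.90e-06 and 5.97e-07). All of these were without overlap. Eno1, enolase, was lower (-0.78 ± 0.08, adjusted p = 5.71e-07), but like other glycolytic genes it has processed copies, and its reads may have been split among them.

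Metallothioneins and genes of the oxidative response were lower in the DGCR8 line, 8 of 10 tested (27% of all genes were), with 1 higher and a median of -0.77. Mt1 and Mt2, which bind zinc and copper, ran from 31.5 (median 35.8) to 37.8 CPM and from 53.0 (median 65.1) to 76.2 CPM, against 132 (median 150.2) to 173 CPM and 225 (median 253) to 281 CPM (-2.10 ± 0.07 and -1.97 ± 0.07, adjusted p = 2.38e-12 and 1.35e-12). Gclm, of glutathione synthesis, and the glutathione transferase gene Gstm2 differed by -0.92 ± 0.07 and -1.57 ± 0.12 (adjusted p = 1.11e-08 and 2.32e-08).

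Signalling lists other than Wnt were mixed. Of 13 FGF-ERK feedback genes 4 were higher (30.8%, close to the 28.1% of all genes) and 6 lower (46.2%, against 27%): the phosphatase gene Dusp6, an ERK target, differed by -0.80 ± 0.07 (adjusted p = 1.00e-07) and the inhibitor gene Spry2 by 0.67 ± 0.08 (adjusted p = 2.28e-06). Of 12 Nodal and BMP genes 3 were higher (25%) and 4 lower (33.3%), both close to the share of all genes, with the ligand gene Bmp4 higher by 1.53 ± 0.14 (adjusted p = 1.49e-07). Of 15 genes of the m6A machinery 7 were higher (46.7%, against 28.1% of all genes) and 2 lower (13.3%, against 27%). Mettl3, the catalytic subunit of the m6A methyltransferase, ran from 57.8 (median 67.0) to 78.9 CPM against 38.4 (median 44.8) to 50.7 CPM (0.59 ± 0.06, adjusted p = 8.27e-07). Mettl3 lies on chromosome 14, whose genes are described below. Of 6 tested genes of the X inactivation centre 4 were lower (27% of all genes were) and 1 higher, with Rlim, the activator of Xist, at 534 (median 576) to 674 CPM against 1098 (median 1171) to 1292 CPM (-1.01 ± 0.06, adjusted p = 2.06e-09). Xist itself held 3 to 10 reads in each DGCR8 library (at most 0.997 CPM). Drosha 96 h replicate 2 held 77 reads of it (6.86 CPM), and the other Drosha libraries held 12 to 29. Of 13 reported targets of the miR-290 family, the main microRNAs of ES cells, 7 were lower (53.8%, against 27% of all genes) and 1 higher with a median of -0.25, Tgfbr2 by -1.27 ± 0.17 (adjusted p = 9.75e-06).

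Replication-dependent histone genes, whose RNAs end without a poly(A) tail, were higher in the DGCR8 line, 31 of 53 tested (58.5%, against 28.1% of all genes), with 4 lower (7.55%, against 27%) and a median of 0.41. Hist1h2bb ran from 438 (median 517) to 808 CPM against 184 (median 269) to 296 CPM (1.12 ± 0.12, adjusted p = 1.13e-06), and Hist1h4k from 12.8 (median 37.0) to 38.6 CPM against 3.56 (median 6.13) to 7.37 CPM (2.36 ± 0.27, adjusted p = 2.28e-06). Of 82 ribosomal protein genes 30 were higher (36.6%, against 28.1% of all genes) and 9 lower (11%, against 27%), and with library totals 18 were higher and 18 lower, so their direction rested on the scaling. Rpl29 and Rpl3 were far lower (-2.62 ± 0.18 and -2.21 ± 0.09, adjusted p = 4.69e-09 and 1.19e-11) and Rpl39l, with 31 reads in the Drosha line and 337 in the DGCR8 line, was 11.5-fold higher (95% counting interval 7.97 to 17.2). Histone and ribosomal genes have near-identical copies, and these single values are uncertain. Of 15 mitochondrial genes 8 were lower (53.3%, against 27% of all genes) and 2 higher. The complex I subunit gene mt-Nd1 ran from 1415 (median 1582) to 1724 CPM against 2045 (median 2573) to 3232 CPM (-0.73 ± 0.08, adjusted p = 9.24e-07), and mt-Nd3 held 17 reads against 295 (16.4-fold, 95% counting interval 10.0 to 28.5). On CPM of library totals mt-Nd3 averaged only 0.269 and 4.33 in the DGCR8 and Drosha lines, against 1510 and 2722 for mt-Nd1. Why mt-Nd3 was so low in both lines was not tested, and its fold change is uncertain.

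The lines were also compared at each of the 3 times, and the difference itself was tested for a change over time. At 24 h 4293 genes (29.8%) passed, at 48 h 4194 (29.2%) and at 96 h 4668 (32.5%), each with 2 libraries against 2. Leaving out 1 library of a time lowered these counts to between 2276 and 4314. A difference that depended on time, tested as an interaction, passed for 8 genes (0.0556%), with 838 at an unadjusted p under 0.05 (5.83%) and 40 by DESeq2. The 8 genes did not hold up without single libraries: the count ran from 0 to 13, and it was 0 without any 1 of 8 libraries.

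**Figure D3:**
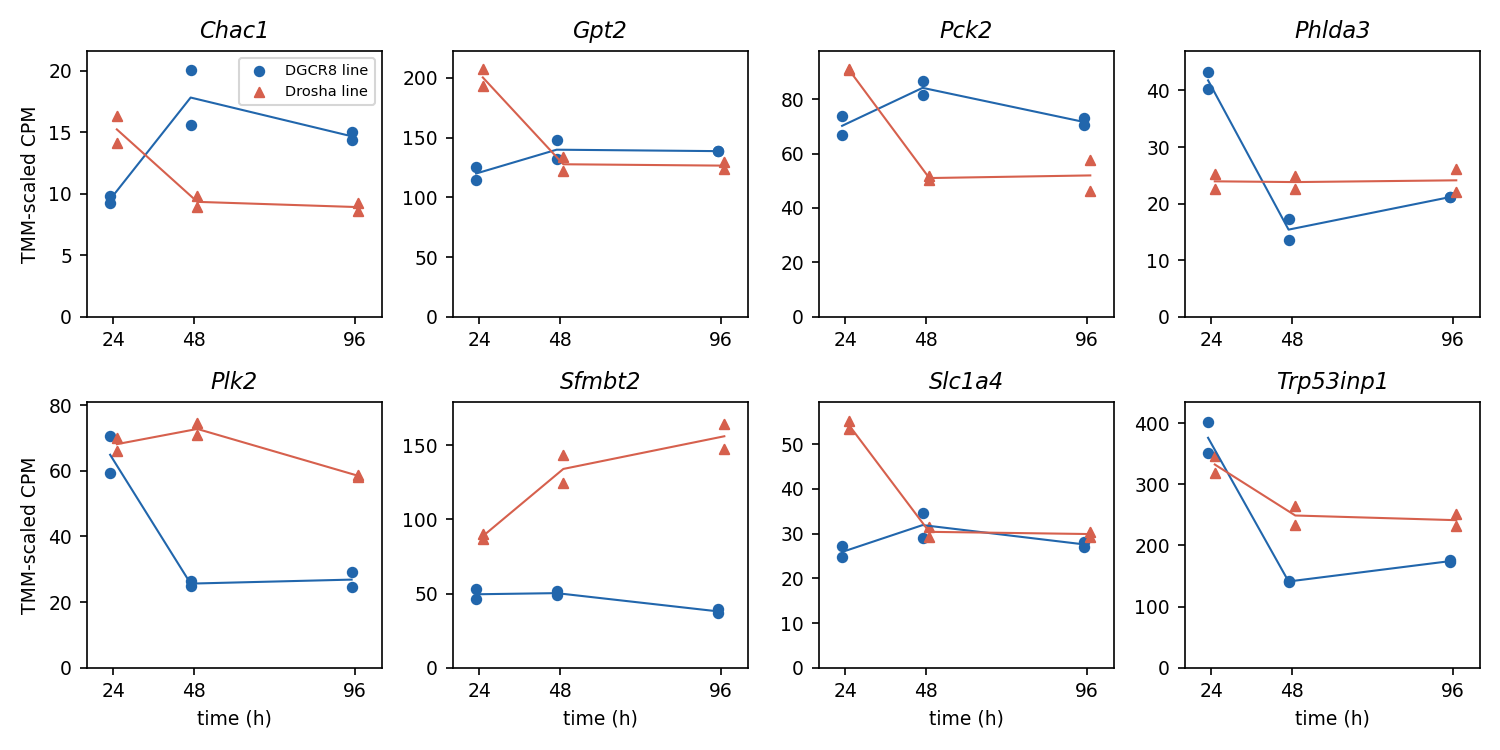
TMM-scaled CPM of the 8 genes with a line-by-time interaction at 24, 48 and 96 h, 1 point per untreated library and a line through the mean of 2. Plk2, Phlda3 and Trp53inp1 are lower after 24 h in the DGCR8 line (Plk2 from 59.3 and 70.4 CPM to 24.5 to 29.2), and Chac1, Gpt2, Pck2 and Slc1a4 are lower after 24 h in the Drosha line.

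Of these 8 genes, Plk2, Phlda3 and Trp53inp1 are p53 targets, and in the DGCR8 line each was lower at 48 and 96 h than at 24 h. Plk2, a kinase gene, stood at 59.3 and 70.4 CPM at 24 h, 24.9 and 26.4 at 48 h and 29.2 and 24.5 at 96 h in the DGCR8 line. In the Drosha line it stayed between 58.2 and 74.7 CPM (log2 fold changes -0.07, -1.50 and -1.12 at the 3 times; interaction adjusted p = 0.0351). Of 19 tested p53 targets 10 were lower (52.6%, against 27% of all genes) and 2 higher (10.5%, against 28.1%) in the fit over all times. The summed level of the list was 2256 and 2178 CPM in the DGCR8 libraries at 24 h and 2133 and 2163 CPM in the Drosha libraries at 24 h. At 48 and 96 h it was 1262 to 1451 CPM in the DGCR8 line and 1943 to 2026 CPM in the Drosha line. The DGCR8 line was thus slightly above the Drosha line at 24 h and below it later, but on library totals its 24 h sums (2152 and 2191 CPM) were below those of the Drosha line (2219 and 2339 CPM). Perp, a p53 target of cell death and adhesion, was lower without overlap (-1.37 ± 0.09, adjusted p = 1.95e-09), and so was Mdm2, which degrades p53 (-0.74 ± 0.11, adjusted p = 3.96e-05), while Aen was higher (0.72 ± 0.10, adjusted p = 9.76e-06).

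In the Drosha line 4 other genes were lower at 48 and 96 h than at 24 h. Slc1a4, Gpt2, Chac1 and Pck2 are known as genes of amino acid supply and the integrated stress response. Slc1a4, an amino acid transporter gene, stood at 53.5 and 55.1 CPM at 24 h and at 29.2 to 31.5 CPM at 48 and 96 h in the Drosha line, against 24.7 to 34.7 CPM in the DGCR8 line (interaction adjusted p = 0.0460). Chac1, which degrades glutathione, stood in the DGCR8 line at 9.25 and 9.85 CPM at 24 h and at 14.4 to 20.0 CPM later, and in the Drosha line at 14.1 and 16.4 CPM and then at 8.58 to 9.80 CPM. Its difference changed sign, with log2 fold changes of -0.67 at 24 h, 0.93 at 48 h and 0.72 at 96 h (interaction adjusted p = 0.0460). Sfmbt2, an imprinted Polycomb-related gene that hosts microRNAs in its intron, stood at 87.0 and 90.4 CPM at 24 h and 148 and 164 CPM at 96 h in the Drosha line, and at 36.7 to 52.8 CPM in the DGCR8 line (interaction adjusted p = 0.0460).

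Genes of whole chromosomes were shifted between the lines. For the 13543 tested genes placed on chromosomes 1 to 19 or X, the median log2 fold change was 0.43 on chromosome 14, 0.24 on chromosome 1, 0.20 on chromosome 4 and 0.17 on chromosome 5, and between -0.13 and 0.06 on the others. On chromosome 14, 301 of 453 genes (66.4%) were higher and 41 lower, on chromosome 1 389 of 765 (50.8%), on chromosome 4 409 of 917 (44.6%) and on chromosome 5 348 of 832 (41.8%) were higher, against 28.1% of all genes. The median level of the genes of chromosome 14, relative to the mean of the 12 libraries, was 0.19 to 0.23 in the DGCR8 libraries and -0.23 to -0.20 in the Drosha libraries. On this measure the lines did not overlap for 17 of the 20 chromosomes, with the DGCR8 line above for 5 (chromosome 2 and these 4) and below for 12. The measure is relative to TMM scaling, so a chromosome counted as below is lower only in relation to the rest. Some gaps were very small: on chromosome 8 the highest DGCR8 library was at 0.0153 and the lowest Drosha library at 0.0154. The shift of chromosome 14 was seen at each time (0.45, 0.44 and 0.43 at 24, 48 and 96 h). In windows of 10 Mb with at least 20 tested genes, the median was above 0 in all 6 windows of chromosome 14 (0.33 to 0.50), all 16 of chromosome 1, all 14 of chromosome 4 and all 12 of chromosome 5. The number of DNA copies was not measured, and this is a description without a test. Mettl3 and Ccnb1ip1 lie on chromosome 14, and members of the gene lists lie on the raised chromosomes too, such as Mael on chromosome 1. The part of a chromosome's shift in the fold changes of any named gene was not tested.

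**Figure D4:**
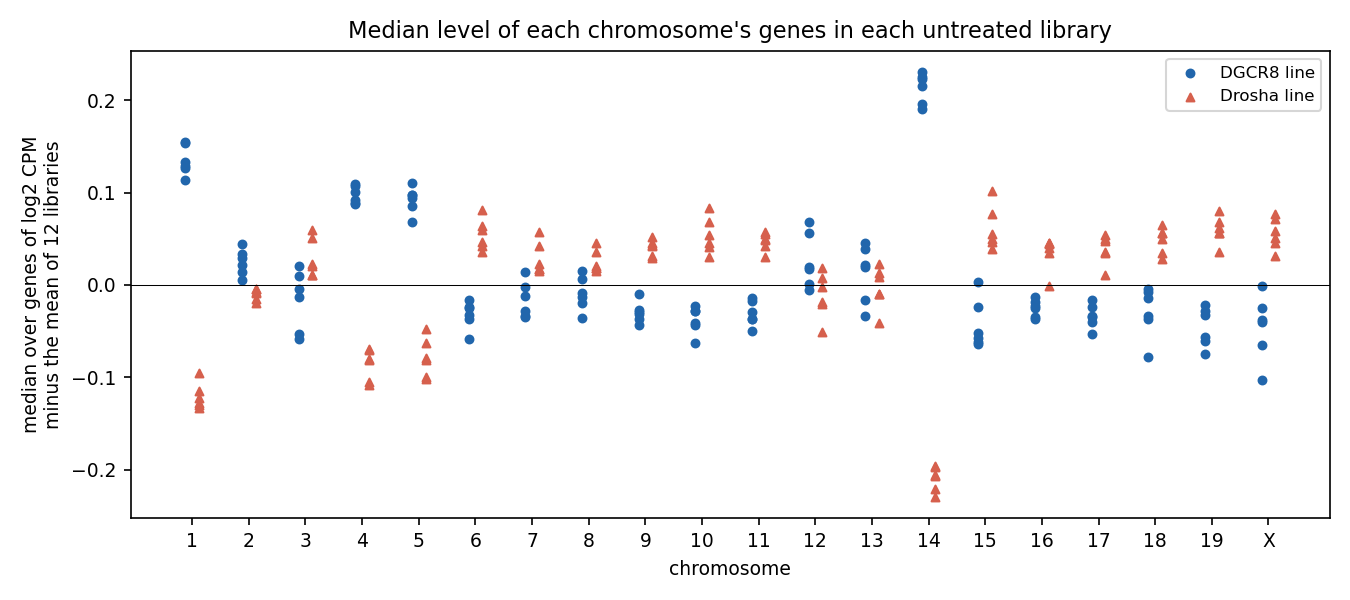
Median over the tested genes of each chromosome of log2 CPM minus the mean of the 12 libraries, 1 point per untreated library (6 per line). Chromosome 14 lies at 0.19 to 0.23 in the DGCR8 line and -0.23 to -0.20 in the Drosha line. The lines do not overlap for 17 of the 20 chromosomes, with the DGCR8 line above for 5 and below for 12, in part by very small gaps. Levels are relative to TMM scaling.

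The line difference was measured again in the 4OHT libraries, 6 of the DGCR8 line and 5 of the Drosha line, which share no library with the untreated comparison but come from the same lines. Of 14522 genes tested there, 6273 (43.2%) passed, 3012 higher (20.7%) and 3261 lower (22.5%). Of 14182 genes tested in both, 2656 were higher in both, 65.9% of those higher untreated and 89.5% of those higher with 4OHT. Likewise 2695 were lower in both, 70.3% and 85.2%, and 2 in each direction were called opposite. Over 2-fold, 354 of 465 genes higher untreated and 748 of 891 lower untreated were also over 2-fold with 4OHT, and none was opposite. Zfp42 had 2.87 with 4OHT, Tagln -4.17, Igf2 -3.06, and the median of chromosome 14 was 0.43. Drosha itself had 0.42 untreated and 2.45 with 4OHT (adjusted p = 6.42e-09), the treatment that removes it in the Drosha line. Dgcr8, higher in the DGCR8 line untreated, had -0.30 with 4OHT (adjusted p = 0.0125). Zic2 and Ccnd1, lower untreated, did not pass with 4OHT (-0.35 and -0.14, adjusted p = 0.122 and 0.404).

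**Figure D5:**
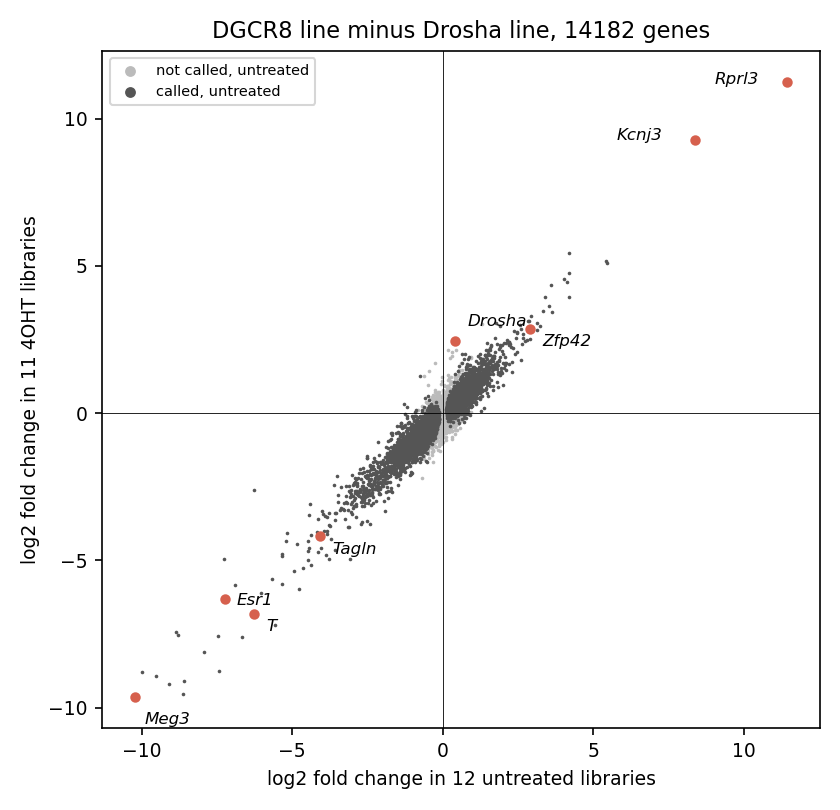
Log2 fold change (DGCR8 line minus Drosha line) of 14182 genes in the 12 untreated libraries (x axis) and in the 11 4OHT libraries (y axis), with genes called untreated in dark grey. Most genes lie near the diagonal, and Drosha lies above it, at 0.42 and 2.45.

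The levels were set beside those of the 2 parental libraries at 37 °C, which were counted in another table, so this is a description without a test, on CPM of library totals. Of the 475 genes over 2-fold higher in the DGCR8 line, 360 (75.8%) were nearer in the parental mean to the DGCR8 line, and of the 929 lower genes 796 (85.7%) were. Rprl3 stood at 507 and 776 CPM and Kcnj3 at 14.2 and 12.2 CPM in the parental libraries, where both were thus on. Tagln stood at 2.49 and 3.47 CPM, Krt8 at 5.36 and 6.10 CPM and Igf2 at 2.26 and 2.24 CPM, all below both floxed lines. The Dlk1-Dio3 RNA Rian, at 149 and 87.0 CPM, lay between the lines (0.937 and 407 CPM), and the imprinted H19, at 8.07 and 22.8 CPM, was below both (84.2 and 65.6 CPM). Whether the floxed lines were derived from the parental line is not given in the sources used here.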

How the data were processed

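RNA depleted of rRNA was sequenced from ES cells with ScriptSeq v2 libraries, per the labels' protocols. Per the submitters' processing notes, the aligner was Bowtie and the genome build mm10. The deposited values are raw counts per gene, made by the authors. For annotation and counting strand, nothing was given in the sources used here. A total of 39017 genes were listed, of which 37607 matched a symbol and 1410 did not. The 12 untreated libraries were grouped by title and compared with edgeR 4.0.16 (R 4.3.3, limma 3.58.1): TMM scaling, filterByExpr by line (14385 genes kept), quasi-likelihood F test with time as a covariate, two-sided, Benjamini-Hochberg adjustment over all genes tested, threshold 0.05. Totals ran from 9689886 to 12210399 counts. The filter on low counts also keeps genes that reach it in either line alone. Counting intervals (exact, 95%) and the floor of 3 reads cover counting error only. The parental libraries come from a separate count table.

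Named were Dgcr8 and Drosha, the 15 genes with the largest difference in each direction (average log2 CPM of at least 2, no overlap) and members of gene lists, up to 4 per list by smallest p, or any tested member for lists described at length. Members outside that rule (such as the RNase P copies) were chosen after their values were seen, and 3 genes that met the rule are not reported here. Members and lists were chosen with earlier results of these data known. On data simulated from these libraries with 14385 genes, 68 of 100 genes changed 1.5-fold and 94 of 100 changed 2-fold were recovered, with 9 false among 171 calls. Far fewer genes were changed there than were called in the data, and in random directions, so errors of scaling are not covered. Alternatives were DESeq2 1.42.0, other scalings and filters, other covariates, only replicate 1, and each library left out. Promoters and microRNAs are from RefSeq (GRCm38.p6).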

Additional observations from a re-analysis of the deposited data

Results flagged for a closer look

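Some single libraries stood apart from the other 5 of their line by Dixon's criterion, which chance alone meets in about 1 of 20 groups; 63 groups of a gene and a line were examined. Kcnj3 stood at 35.7 CPM in DGCR8 48 h replicate 2. Meg3 stood at 270.2 CPM in Drosha 96 h replicate 2, and Gm26945 at 21.5 CPM in that library. Gm26945 stood at 0.0961 CPM in DGCR8 96 h replicate 2, which is 1 read, against 0 in the others.

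The line difference changed with time, by edgeR's interaction test, for Plk2 (adjusted p = 0.0351) and for Slc1a4, Chac1, Trp53inp1, Gpt2, Pck2, Phlda3 and Sfmbt2 (adjusted p = 0.0460 each). The log2 fold changes at 24, 48 and 96 h were 0.18, -0.82 and -0.47 for Trp53inp1. They were 0.80, -0.63 and -0.19 for Phlda3, -0.74, 0.13 and 0.13 for Gpt2, and -0.37, 0.72 and 0.46 for Pck2.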

How the results depend on the processing

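The line difference in untreated cells, 7932 calls, became 7643 with DESeq2, 7017 in replicate 1 alone (6320 of them shared) and 7422 to 7969 with 1 library left out. The deviations of same-numbered libraries correlated weakly, at 0.03, 0.25 and 0.08 at 24, 48 and 96 h, and with a replicate block 8183 genes were called. Whether replicate numbers pair the libraries was not settled. With 1 library left out, the 24 h count lay between 2276 and 3366, the 48 h count between 2611 and 3683 and the 96 h count between 2720 and 4314, while the 4OHT libraries gave 5437 to 7555 calls. The interaction count of 8 became 40 with DESeq2's likelihood ratio test and ran from 0 to 13 with 1 library left out. The cause was not tested. For 134 genes followed over 22 settings, 2932 values kept direction and side of the threshold, 9 lost the call, 3 gained it and 0 reversed. Of the list counts, 537 stayed within 1.5 times and 13 did not, among them the lower mitochondrial genes, 0 where these genes were left out. Sycp1 passed in replicate 1 alone (adjusted p = 0.0151) and without DGCR8 24 h replicate 2 (adjusted p = 0.0150), Usp29 with library totals (adjusted p = 0.0497).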
